A study of Mus musculus with 24 samples.

Results

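The genes described here are 42 genes of the interferon response and of antigen presentation, chosen by name and found by symbol among the 31053 genes counted in each library. The choice was made with earlier results of these data known, so shares over all genes printed beside member counts are no independent test. The 42 genes comprise 3 sensors of foreign nucleic acid, 6 transcriptional regulators, 14 interferon-stimulated effectors, 5 interferon-induced GTPases, 4 MHC class I chains, 4 MHC class II genes and 6 genes of peptide production and loading. They were followed in isolated retinal pigment epithelium (RPE), the pigmented layer that supports the photoreceptors, of mice aged 11 days (P11), 29 days (P29) or 3 months (3M). Control mice carried the Dct-Cre transgene, which expresses the Cre recombinase in pigment cells, and mutant mice carried Dct-Cre together with floxed Ift20, a gene needed to build cilia. All 6 groups therefore carried Cre, all were on a mixed strain background, and each held 4 libraries. The sources used here do not say which Ift20 alleles the controls had, how many animals a library held or of which sex they were. The labels call the libraries biological replicates, but the number of animals behind each is unknown. The p-values therefore reflect only how far these libraries differ, and how much of that spread is technical is not known.

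Interferons are secreted proteins that cells release on sensing viral or displaced nucleic acid. Their receptors activate transcription factors, among them STAT2 with IRF9, that bind the interferon-stimulated response element (ISRE), and interferon gamma acts at the gamma-activated site (GAS). The same signals raise MHC class I, which shows peptides from the cytosol to CD8 T cells on nearly all cells, and, through CIITA, MHC class II, which is otherwise mostly made by professional antigen-presenting cells. In the eye, an immune-privileged organ, the RPE forms the outer blood-retina barrier, and resting RPE is known for little or no class II.

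Promoters of 5 members whose transcript levels differed between genotypes are shown first, to set the regulatory sequence beside the measurements. They are RefSeq sequences of GRCm38.p6, each 250 bases before to 50 bases after a transcription start, read 5′ to 3′ on the strand of the gene. Capitals mark matches to the ISRE core GAAANNGAAA (TTTCNNTTTC on the other strand) and to the GAS core TTCNNNGAA.
B2m, chr2:122147437-122147736, plus strand: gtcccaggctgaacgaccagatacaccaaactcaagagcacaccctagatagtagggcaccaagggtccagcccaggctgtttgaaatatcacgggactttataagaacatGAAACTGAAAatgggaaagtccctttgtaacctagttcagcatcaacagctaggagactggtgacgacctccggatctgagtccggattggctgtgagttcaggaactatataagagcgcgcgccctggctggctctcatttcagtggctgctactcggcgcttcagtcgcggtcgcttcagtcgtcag
Ifitm3, chr7:141010695-141010994, minus strand: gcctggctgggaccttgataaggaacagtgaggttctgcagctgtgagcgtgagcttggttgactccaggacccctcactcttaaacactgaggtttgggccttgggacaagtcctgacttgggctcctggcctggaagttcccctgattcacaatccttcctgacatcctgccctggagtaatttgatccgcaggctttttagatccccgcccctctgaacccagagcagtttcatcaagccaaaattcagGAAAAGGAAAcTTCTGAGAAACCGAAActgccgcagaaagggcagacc
Gbp2, chr3:142620413-142620712, plus strand: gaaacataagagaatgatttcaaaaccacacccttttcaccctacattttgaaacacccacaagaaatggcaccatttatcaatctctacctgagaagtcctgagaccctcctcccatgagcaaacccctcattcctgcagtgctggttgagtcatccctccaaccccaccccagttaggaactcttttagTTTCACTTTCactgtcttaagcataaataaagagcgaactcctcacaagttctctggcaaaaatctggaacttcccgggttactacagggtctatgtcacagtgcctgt
Ifit3, chr19:34583279-34583578, plus strand: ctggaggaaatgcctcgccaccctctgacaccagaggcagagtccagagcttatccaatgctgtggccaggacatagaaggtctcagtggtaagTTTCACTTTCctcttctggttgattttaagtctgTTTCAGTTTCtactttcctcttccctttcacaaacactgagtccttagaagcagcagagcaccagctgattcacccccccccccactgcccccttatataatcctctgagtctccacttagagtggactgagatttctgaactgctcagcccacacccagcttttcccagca
H2-Eb1, chr17:34305617-34305916, plus strand: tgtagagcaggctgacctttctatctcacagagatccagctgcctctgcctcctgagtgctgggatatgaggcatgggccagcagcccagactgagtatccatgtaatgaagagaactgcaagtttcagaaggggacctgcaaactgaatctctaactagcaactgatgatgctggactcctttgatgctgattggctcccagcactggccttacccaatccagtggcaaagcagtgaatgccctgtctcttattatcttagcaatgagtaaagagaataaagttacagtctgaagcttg
B2m (ENSMUSG00000060802, the class I light chain) held 1 ISRE match, starting 139 bases before the transcription start. Ifitm3 (ENSMUSG00000025492, an antiviral membrane protein) held 2 ISRE matches and 1 GAS match just after the start, and the GAS match overlapped the second ISRE match. Gbp2 (ENSMUSG00000028270, a guanylate-binding GTPase) held 1 ISRE match and Ifit3 (ENSMUSG00000074896, an effector of the Ifit family) held 2. The window of H2-Eb1 (ENSMUSG00000060586, the beta chain of the class II molecule I-E) held neither motif. It held 2 matches to CCAAT or, on the other strand, to ATTGG, the letters of the Y box of class II promoters, which are common elsewhere. Tapbp, H2-Aa, Cd74 and Iigp1 were also called between genotypes and are not shown. The windows of Tapbp and H2-Aa held no ISRE or GAS match.

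The 42 members had a promoter entry for 32, with 38 windows. An ISRE match was found in 15 of the 32 (46.9%), against 3.44% of all 32851 windows and 3.99% of all 27025 genes with a window. GAS matches were found in 7 members (21.9%), against 8.30% of all windows and 9.55% of all genes with one. CCAAT was found in 15 (46.9%), against 37.4% of windows and 41.1% of genes. The ISRE matches lay in effectors (Bst2, Ifi203, Ifit1, Ifit3, Ifitm3, Isg15), GTPases (Gbp2, Gbp3, Igtp, Irgm1), sensors (Ddx58, Ifih1), the regulator Stat2 and the class I genes B2m and H2-T23. None of the class II or peptide-loading windows held one. Tap1 and Psmb9, a peptide transporter subunit and an immunoproteasome subunit, are transcribed away from each other from starts 226 bases apart, and their windows shared 275 bases. These matches describe letters in the windows, and binding was not measured.

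Libraries held 1513440 to 2889946 gene counts (median 2386800) and 13132 to 14709 genes with a count. Levels are counts scaled to a library of 1000000 counts and corrected by library normalisation factors (CPM), and 3 counts corresponded to 1.04 to 1.98 CPM. Ift20 itself had log2 fold changes, mutant against control, of -0.27 at P11, -0.60 at P29 and -0.26 at 3M, of which the P29 value passed (edgeR adjusted p = 0.0113). A tag at the 3′ end can lie outside a deleted exon, so this does not check the genotype. The markers of the labelled cell type were present at high summed levels. The 10 RPE genes summed to a mean of 19562 CPM in P11 controls and 18660.4 in P11 mutants, 49256 and 43290.5 at P29, and 67268 and 67030.1 at 3M. Best1 had too few counts to be tested. Of the 9 tested, 6, 4 and 1 were lower in mutants at these ages, beside 3.67%, 1.19% and 0.48% of all genes. One library stood apart: in control replicate 3 at 3M, 8 fibroblast genes summed to 1200.4 CPM, against 613 to 708 in the other 3 controls, and Ifitm3 and Ifit3 were also highest there. The calls at 3M that were lost without it are therefore named below, and some values at 3M are also given without it.

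Of the 42 members 38 passed the filter on low counts. The class II transactivator Ciita (69 counts over all libraries), the cytosolic nucleic acid sensor Zbp1 (35), the non-classical class I chain H2-T23 (12) and the class I transactivator Nlrc5 (9) did not pass. Reads aligned to several places were not assigned to genes. The levels of members with close copies (H2-K1 and H2-D1, the Ifit, Gbp and Ifi200 families) are therefore uncertain. Counting may not have used strand, and the last 500 bases of Irf7 overlap an exon of Phrf1 on the other strand. Without strand, reads in that overlap could not be assigned to Irf7 alone and may have been left out as ambiguous. The level of Irf7 is therefore uncertain. Exons of Ifi203 and Mndal, Igtp and Irgm2, Irf9 and Rnf31, and Tapbp and Zbtb22 overlap on the same strand.

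Between P11 and P29 members of every role rose, in controls and in mutants, from the regulators to the class II genes. In bulk libraries fewer cells of a type and less RNA per cell cannot be told apart, and this holds for each result below. In controls 23 of the 38 were higher at P29 (edgeR's quasi-likelihood test, Benjamini-Hochberg adjusted p under 0.05, the threshold used throughout) and 0 lower, against 16.5% of all 12303 genes tested higher and 15.6% lower. In mutants 23 were also higher and 0 lower, against a background of 16.5% and 15.2%. The median log2 fold change of the members was 1.39 in controls and 1.45 in mutants, beside -0.02 and -0.01 over all genes. The lists of calls shared 18 genes, 78.3% of each. Groups did not overlap for 22 of the 38 in controls and 21 in mutants, each time with P29 above P11, beside 13.8% and 15.3% of all genes tested.

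After P29 falls predominated in controls. There, 15 members were lower at 3M than at P29 and 0 higher, against 8.5% and 3.49% of all genes, with a median of -0.68. In mutants 3 were lower and 2 higher, against 7.27% and 5.44%, with a median of -0.13. The rise to P29 and the change after it share the P29 libraries of each genotype. The difference between genotypes was tested member by member as the change in genotype effect from P29 to 3M: it passed for 2 members upward and 0 downward, against 0.61% and 0.244% of all genes, with a median of 0.60 beside 0.05 over all genes. The control count was 10 without control replicate 1 at 3M and 12 without control replicate 3 at 3M.

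Direct comparisons of mutant with control gave fewer calls. At P11, 6 members were lower in mutants (B2m, Ifitm3, Gbp2, H2-Eb1, Tapbp and Cd74) and 0 higher, against 3.67% and 3.23% of all genes, and the median was -0.50 beside -0.00209 over all genes. At P29, 2 members were lower (B2m and Iigp1) and 0 higher, against 1.19% and 1.63%, with a median of -0.36. At 3M, 2 were higher (Ifit3 and H2-Aa) and 0 lower, against 2.13% and 0.48%, with a median of 0.25. These counts depended on the fit. With only the libraries compared, 2 members passed at P11 (B2m and Ifitm3) and 7 at P29, all lower, with Cd74, Gbp2, H2-Aa, Ifi44 and Igtp added to B2m and Iigp1. In that fit 3 passed at 3M, all higher, with Ifi27 added to Ifit3 and H2-Aa. DESeq2 called 7 lower at P11, the same 6 and H2-K1, and 1 higher, Xaf1, and called 4 lower at P29, adding H2-Aa and Ifi44. From P11 to P29 the genotype effect itself changed upward for 1 member, Ifitm3, and downward for 0, against 1.45% and 1.18%. Without 1 library the P29 count fell to 0 (control replicate 2, mutant replicate 2 or mutant replicate 4), and the 3M count fell to 0 without control replicate 1 and to 1 without any of control replicates 2 to 4 or mutant replicates 1 to 3. The genotypes did not overlap for 7 of the 38 members at P11, all with mutants lower, beside 4.98% of all genes tested. At P29 this held for 10, 1 of them with mutants higher, beside 4.11% lower and 3.67% higher. At 3M it held for 5, all with mutants higher, beside 5.07%.

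**Figure D1:**
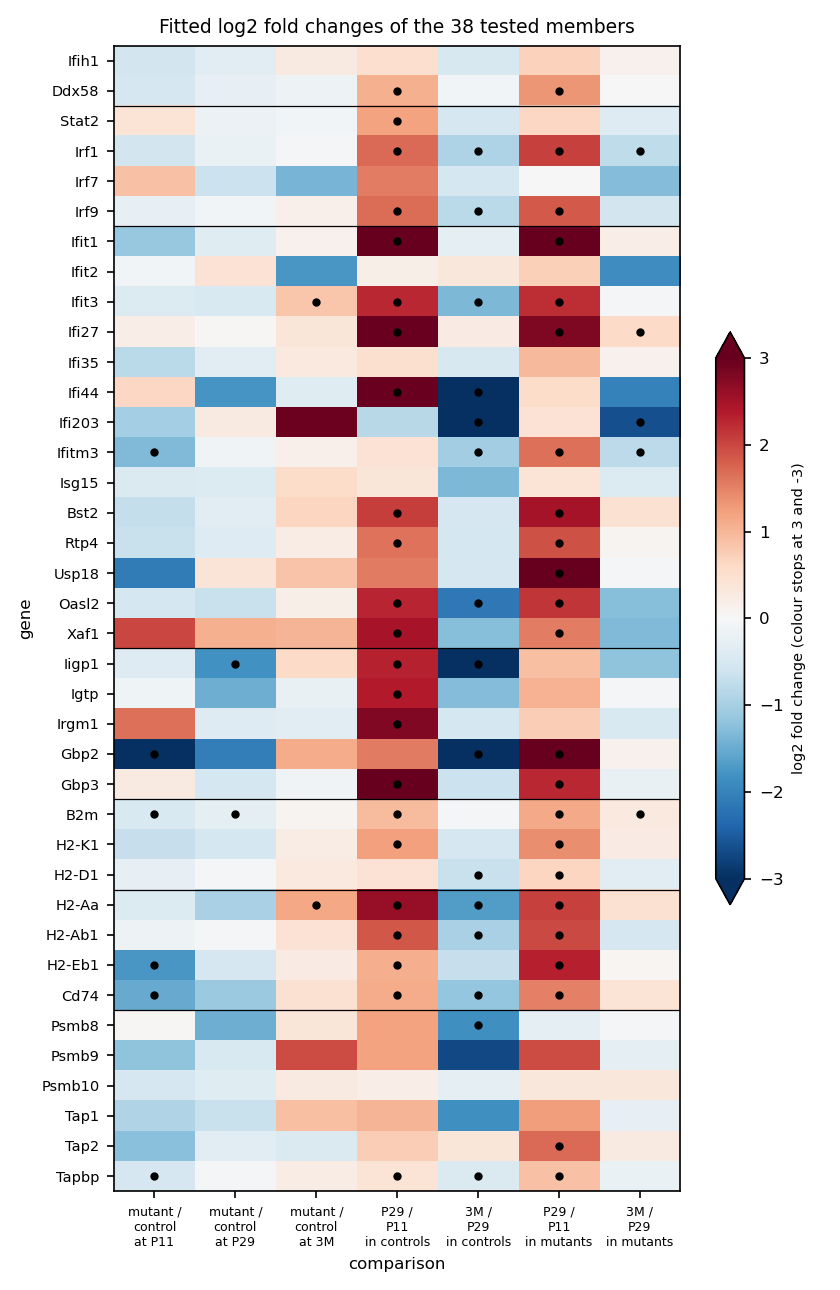
Fitted log2 fold changes of the 38 tested members (rows, in order of role, separated by lines) in 7 comparisons (columns), with colour limited to between -3 and 3 and a dot where the edgeR adjusted p was under 0.05. The columns for P29 against P11 hold 23 dots each, the column for 3M against P29 holds 15 in controls and 5 in mutants, and the genotype columns hold 6, 2 and 2.

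Of the 4 regulators tested, 3 rose to P29 in controls and 2 in mutants, and none passed between genotypes at any age with edgeR. Irf1, a transcription factor induced by interferon gamma, had 11.99, 6.59, 22.7 and 22.2 CPM in P11 controls, 57.3, 49.6, 38.6 and 60.2 at P29, and 32.7, 26.1, 22.1 and 27.8 at 3M. In mutants it had 14.7, 9.13, 10.7 and 8.89 CPM at P11, 48.7, 34.9, 50.2 and 44.9 at P29, and 28.8, 29.5, 26.4 and 20.9 at 3M. In both genotypes all P29 libraries were above all P11 and all 3M libraries, while controls and mutants overlapped at each age. To P29, on the log2 scale, Irf1 rose by 1.71 in controls (SE 0.27, edgeR adjusted p = 8.5e-08) and by 2.05 (SE 0.27, adjusted p = 8.15e-10) in mutants. It then fell by 0.91 (SE 0.25, edgeR adjusted p = 0.00595) in controls and by 0.76 (SE 0.25, adjusted p = 0.031) in mutants. The mutant fall was lost without mutant replicate 1, 3 or 4 at P29 or 1, 3 or 4 at 3M (edgeR adjusted p from 0.051 to 0.126).

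Irf9, the DNA-binding partner of STAT2, followed a like course in controls, with 18.98, 14.99, 23.3 and 20.7 CPM at P11, 59.4, 54.8, 75.3 and 60.7 at P29, and 43.2, 35.1, 35.2 and 29.4 at 3M. Mutants had 20.6, 16.1, 14.7 and 14.5 CPM, then 46.9, 52.2, 69.8 and 65.6, then 37.4, 42.5, 46.1 and 33.9. P29 libraries stood above those of both other ages in each genotype, and the genotypes overlapped at each age. The rise was 1.68 (SE 0.22, edgeR adjusted p = 5.02e-10) in controls and 1.83 (SE 0.22, adjusted p = 2.84e-11) in mutants. Its fall after P29 passed in controls (log2 fold change -0.81, SE 0.21, edgeR adjusted p = 0.00306). In mutants the value was -0.55 (SE 0.21, edgeR adjusted p = 0.0632), and the difference between these falls did not pass (0.26, SE 0.29, adjusted p = 0.895).

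Stat2 had 13.3, 13.8, 8.83 and 21.7 CPM in P11 controls, 32.02, 38.9, 37.5 and 25.2 at P29, and 33.1, 27.003, 10.4 and 24.2 at 3M. In mutants its levels were 20.6, 26.9, 13.4 and 16.6 CPM, then 34.9, 15.7, 37.9 and 30.1, then 12.9, 23.01, 25.1 and 29.6. P11 and P29 did not overlap in controls and overlapped in mutants. The rise passed in controls (1.21, SE 0.31, edgeR adjusted p = 0.000943), and the mutant value was 0.61 (SE 0.30, adjusted p = 0.112). Irf7, which amplifies type I interferon production, was low, at 1.33, 0, 6.3 and 2.65 CPM in P11 controls, 5.69, 7.94, 6.98 and 8.89 at P29, and 10.9, 3.15, 1.3 and 4.83 at 3M. Mutants had 3.92, 1.3, 7.57 and 5.66 CPM, then 1.38, 3.93, 5.11 and 8.2, then 3.51, 3.04, 0 and 0.87. All neighbouring Irf7 groups overlapped, and no comparison of it passed.

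Among the sensors, Ddx58 (the RIG-I helicase) rose from 14.7 CPM ± 7.59 (SD, n = 4) to 31.2 ± 9.23 in controls and from 10.4 ± 2.1 to 25.9 ± 5.51 in mutants. Its log2 fold changes were 1.07 (SE 0.30, edgeR adjusted p = 0.00287) and 1.32 (SE 0.31, adjusted p = 0.000307), and at 3M it averaged 29.1 and 26.2 CPM. The related helicase Ifih1 (MDA5) averaged between 7.22 and 14.9 CPM and passed in no comparison.

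Of the 14 effectors, 8 rose to P29 in controls and 9 in mutants, 5 fell after P29 in controls, and Ifitm3 and Ifit3 differed between genotypes. Ifitm3, whose protein blocks entry of viruses through endosomes, had 61.9, 78.5, 66.8 and 71.5 CPM in P11 controls and 26.9, 18.3, 18.2 and 47.3 in P11 mutants. Every P11 mutant was below every P11 control. On the log2 scale mutants differed by -1.32 (SE 0.24, edgeR adjusted p = 0.000201), which passed in each alternative analysis run. At P29 controls had 101, 78.2, 100.3 and 96.3 CPM and mutants 90.1, 84.4, 80.0 and 95.7, and the groups overlapped (-0.10, SE 0.22, edgeR adjusted p = 0.926). At 3M controls had 37.3, 31.5, 83.4 and 29.8 CPM and mutants 45.2, 46.9, 55.9 and 54.0, with replicate 3 of the controls above every mutant and the other 3 below (0.15, SE 0.23, adjusted p = 0.926).

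The age change of Ifitm3 differed between genotypes. From P11 to P29 the values on the log2 scale were 0.44 (SE 0.22, edgeR adjusted p = 0.131) in controls and 1.65 (SE 0.24, adjusted p = 1.83e-07) in mutants, and the difference was 1.21 (SE 0.32, adjusted p = 0.0274). That difference was lost without control replicate 2 or 3 or mutant replicate 1, 2 or 3 at P11, and without control replicate 2 or mutant replicate 1 or 4 at P29 (edgeR adjusted p from 0.0558 to 0.0678). With DESeq2 its adjusted p was 0.0577. From P29 to 3M it fell by 1.05 (SE 0.22, edgeR adjusted p = 0.000638) in controls, or by 1.51 without control replicate 3, and by 0.79 (SE 0.22, adjusted p = 0.0112) in mutants.

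Ifit3, of the same family as Ifit1, had 25.3, 9.59, 9.46 and 19.6 CPM in P11 controls and 9.3, 9.56, 19.6 and 12.1 in P11 mutants. At P29 it had 86.8, 86.1, 57.0 and 92.8 CPM in controls and 67.1, 51.0, 58.7 and 59.3 in mutants. At 3M controls had 29.4, 28.4, 40.8 and 27.8 CPM and mutants 51.4, 59.5, 60.0 and 55.7. All 3M mutants were above all 3M controls, while the genotypes overlapped at P11 and P29. The rise to P29 was 2.26 (SE 0.23, edgeR adjusted p = 2.71e-14) in controls and 2.21 (SE 0.24, adjusted p = 2.9e-13) in mutants. After P29 Ifit3 fell by 1.35 (SE 0.22, edgeR adjusted p = 6.37e-07) in controls, whereas mutants had a log2 fold change of -0.06 (SE 0.21, adjusted p = 0.919).

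The 3M difference in Ifit3 between genotypes was 0.84 (SE 0.22, edgeR adjusted p = 0.0134), or 0.99 (adjusted p = 0.00658) without control replicate 3. Leaving out control replicate 1 or 4 ended the call, with edgeR adjusted p of 0.0512 and 0.0653. The genotype effect moved by 1.29 (SE 0.30, edgeR adjusted p = 0.00839) from P29 to 3M, which passed in each alternative analysis run.

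**Figure D2:**
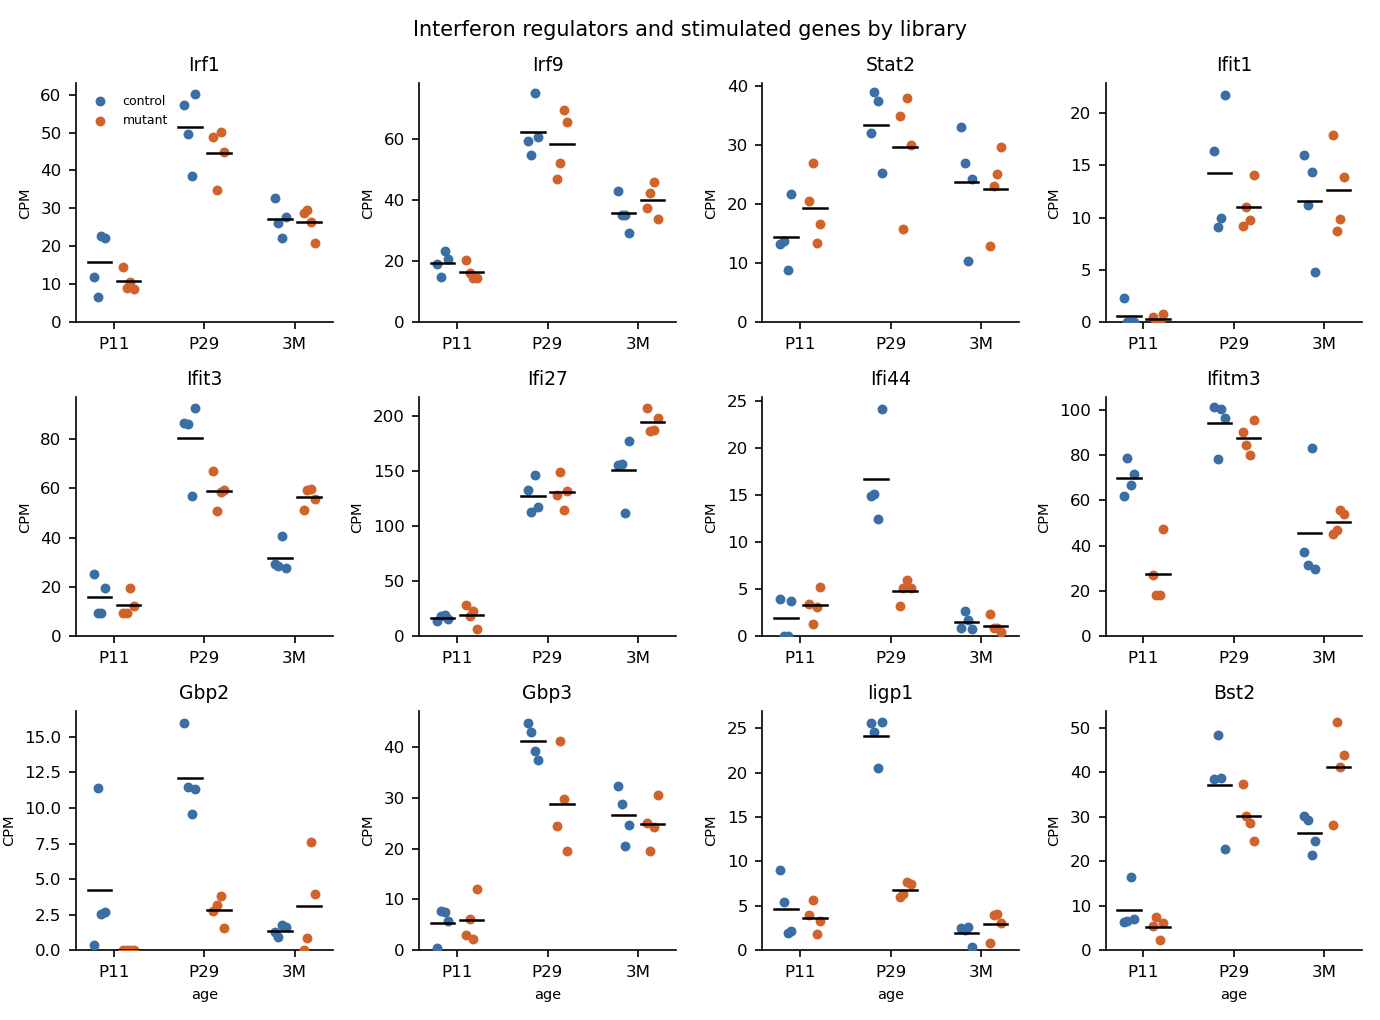
Level in CPM (vertical axis, linear from 0) of 12 interferon regulators, effectors and GTPases in each library (points) at 3 ages (horizontal axis), with the mean of each group as a bar. Ifitm3 was low in P11 mutants, at 18.2 to 47.3 CPM against 61.9 to 78.5 in controls, and Ifit3 was high in 3M mutants, at 51.4 to 60.0 CPM against 27.8 to 40.8 in controls.

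Ifi27, an interferon-induced protein of mitochondria and the nuclear envelope, rose steeply to P29 and did not fall afterwards. It averaged 16.6 CPM ± 2.63 in P11 controls, 128 ± 15.2 at P29 and 151 ± 27.5 at 3M (SD, n = 4), and 19.1 ± 9.37, 131 ± 14.1 and 195 ± 9.58 in mutants. P11 and P29 did not overlap in either genotype, with log2 fold changes of 2.97 (SE 0.20, edgeR adjusted p = 1.39e-20) and 2.80 (SE 0.19, adjusted p = 2.88e-20). In mutants it rose again by 3M (0.57, SE 0.15, edgeR adjusted p = 0.00572). Controls had 0.24 (SE 0.15, adjusted p = 0.381), and these changes were not shown to differ (0.33, SE 0.22, adjusted p = 0.71). At 3M every mutant (187 to 207 CPM) lay above every control (112 to 178), and 5.07% of all genes tested were so separated. This genotype difference did not pass in the main fit. It passed with only the libraries compared (0.35, SE 0.10, edgeR adjusted p = 0.0368).

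Ifit1 was nearly undetected at P11, with 0.583 CPM ± 1.17 in controls and 0.324 ± 0.397 in mutants, and reached 14.3 ± 5.92 and 11.0 ± 2.17 at P29 (SD, n = 4). In mutants it had 3 counts at P11 and 107 at P29, 33.6 times as many after scaling for depth (exact 95% limits of counting 11.2 and 165). Its levels at 3M were 11.6 ± 4.9 and 12.6 ± 4.21 CPM. Bst2 (tetherin, which holds budding viruses at the cell surface) rose by 2.08 (SE 0.31, edgeR adjusted p = 2.07e-08) in controls and 2.498 (SE 0.33, adjusted p = 2.99e-10) in mutants to P29. It averaged 26.3 CPM ± 4.17 in controls and 41.1 ± 9.67 in mutants at 3M, where groups overlapped (0.64, SE 0.27, edgeR adjusted p = 0.299).

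Rtp4, Oasl2 and Xaf1 also rose to P29 in both genotypes. Rtp4, a chaperone of receptors that restrains interferon responses, had 1.62 (SE 0.47) in controls and 1.92 (SE 0.50) in mutants on the log2 scale. Oasl2, a member of the oligoadenylate synthetase family, had 2.29 (SE 0.78, edgeR adjusted p = 0.0166) and 2.13 (SE 0.80, adjusted p = 0.0306). The Oasl2 call was lost without control replicate 1 or 4 at P11 (edgeR adjusted p = 0.0679 and 0.0624), and in mutants without replicate 1 or 2 at P11 or 4 at P29 (adjusted p from 0.0614 to 0.116). Xaf1, a pro-apoptotic protein, had 2.47 (SE 0.66) in controls and 1.55 (SE 0.55) in mutants, the mutant call being lost without mutant replicate 1 or 2 at either age (edgeR adjusted p from 0.0667 to 0.0951). Xaf1 was also the only member whose P29 mutants all lay above all P29 controls, at 18.2 CPM ± 7.14 against 8.61 ± 1.51, a difference that did not pass (1.07, SE 0.53, edgeR adjusted p = 0.429), and 3.67% of all genes were so separated. At P11 Xaf1 was 1.99 higher in mutants on the log2 scale (SE 0.67, edgeR adjusted p = 0.0539), which passed with DESeq2 (adjusted p = 0.0317).

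Ifi44, an interferon-induced cytoplasmic protein, rose and fell in controls. It averaged 1.93 CPM ± 2.23 at P11, 16.7 ± 5.15 at P29 and 1.52 ± 0.897 at 3M in controls (SD, n = 4), rising by 2.95 (SE 0.71, edgeR adjusted p = 0.000496) and falling by 3.42 (SE 0.73, adjusted p = 0.000256). Mutants averaged 3.27 ± 1.62, 4.84 ± 1.16 and 1.13 ± 0.83 CPM, and neither step passed. At P29 the genotypes did not overlap, yet neither the difference (-1.77, SE 0.65, edgeR adjusted p = 0.164) nor its change from P11 (-2.40, SE 0.99, adjusted p = 0.225) passed. Usp18, a protease that removes ISG15 and damps the receptor, had 3 counts in P11 mutants and 63 in P29 mutants, 19.8 times as many after scaling (exact 95% limits of counting 6.46 and 98.4).

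Ifi203, a nuclear protein of the Ifi200 family, did not pass between P11 and P29 in either genotype and fell afterwards. It had 63 counts in P29 controls and 1 in 3M controls, 58.7 times fewer after scaling (exact 95% limits of counting 10.2 and 2356). In mutants it fell by 2.64 (SE 0.71, edgeR adjusted p = 0.00469) over the same interval, from 7.65 CPM ± 3.8 to 1.2 ± 0.786 (SD, n = 4). From P29 to 3M in controls Oasl2 fell by 2.14 (SE 0.75, edgeR adjusted p = 0.0468). The Oasl2 fall was lost under the replicate block (edgeR adjusted p = 0.0778) and without any of 7 libraries, all but control replicate 3 at 3M (adjusted p from 0.0512 to 0.155). Ifit2, Ifi35 and Isg15, the last a ubiquitin-like modifier that many antiviral responses induce strongly, passed in no comparison, and Isg15 averaged between 2.31 and 6.01 CPM.

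The interferon-induced GTPases act on membranes around intracellular pathogens, and 4 of the 5 rose to P29 in controls and 2 in mutants. Iigp1, of the immunity-related GTPases, had 8.99, 5.4, 1.89 and 2.12 CPM in P11 controls, 25.6, 24.6, 20.6 and 25.7 at P29, and 2.52, 2.25, 2.61 and 0.403 at 3M. Mutants had 3.92, 5.65, 1.78 and 3.23 CPM, then 5.97, 6.28, 7.66 and 7.42, then 0.78, 3.91, 4.03 and 3.05. The 4 P29 controls stood above every other library, mutant or control. Iigp1 rose by 2.31 (SE 0.52, edgeR adjusted p = 0.000201) and fell by 3.61 (SE 0.57, adjusted p = 5.43e-07) in controls, and no step passed in mutants. The P29 difference between genotypes was -1.81 (SE 0.50, edgeR adjusted p = 0.0227), a call lost on leaving out any 1 of the 8 P29 libraries other than control replicate 3 (adjusted p from 0.0553 to 0.0813), with values from -1.87 to -1.75.

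Gbp2 had 0.333, 11.4, 2.52 and 2.65 CPM in P11 controls, with most of the level in replicate 2, and no count in any P11 mutant. With the 29 counts of the controls taken as exact and a group floor of 3 counts, Gbp2 was at least 10.8-fold lower in P11 mutants (edgeR adjusted p = 0.00155). Replicate 2 held 19 of those counts, and without it the bound was 4.66-fold (edgeR adjusted p = 0.0344). The call passed in each of the 13 alternatives that tested Gbp2 here, and it was not tested with only the compared libraries fitted. P29 controls had 16.01, 11.5, 9.55 and 11.4 CPM and P29 mutants 2.76, 3.14, 3.83 and 1.56, which did not overlap, although the difference did not pass (-2.08, SE 0.78, adjusted p = 0.177). At 3M controls had 1.26, 0.9, 1.74 and 1.61 CPM and mutants 0, 0.868, 7.61 and 3.92, and the groups overlapped. Gbp2 fell by 3.09 (SE 0.84, edgeR adjusted p = 0.00627) in controls after P29, and in mutants its 27 counts at P29, taken as exact, were 8.47-fold above the P11 floor.

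Gbp3, a close relative, rose in both genotypes, from 5.38 CPM ± 3.48 to 41.1 ± 3.31 in controls and from 5.84 ± 4.51 to 28.7 ± 9.33 in mutants (SD, n = 4). Its log2 fold changes were 3.06 (SE 0.38, edgeR adjusted p = 2.55e-10) and 2.26 (SE 0.37, adjusted p = 3.85e-07). Igtp and Irgm1, which guard and regulate other GTPases of this family, rose in controls by 2.38 (SE 0.62) and 2.77 (SE 0.93, edgeR adjusted p = 0.0147). The Irgm1 call was lost without control replicate 2 or 4 at P11 (edgeR adjusted p = 0.05 and 0.0535). In mutants Igtp had 1.05 (SE 0.65, edgeR adjusted p = 0.223) and Irgm1 0.74 (SE 0.81, adjusted p = 0.543), and neither difference between genotypes passed (adjusted p = 0.562 and 0.503). Summed over the 5 GTPases, P11 controls had 13.2 to 24.6 CPM and P11 mutants 9.79 to 19.99, P29 controls 84.5 to 113 and P29 mutants 35.9 to 60.9, and 3M controls 34.2 to 45.7 and 3M mutants 35.1 to 42.2. The genotypes overlapped at P11 and 3M and did not at P29.

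MHC class I was measured mainly through B2m, the light chain shared by all class I molecules. B2m had 473, 492, 465 and 408 CPM in P11 controls and 356, 353, 322 and 309 in P11 mutants. P29 controls had 870.5, 936, 980.4 and 784 CPM and P29 mutants 718, 709, 805 and 704. At 3M controls had 875, 865, 749.6 and 921 CPM and mutants 881, 894, 876 and 933. All P11 mutants lay below all P11 controls, while 1 mutant overlapped the controls at P29 and the groups overlapped at 3M. The P11 difference was -0.46 (SE 0.08, edgeR adjusted p = 5.73e-06), which passed in each alternative analysis run. At P29 it was -0.28 (SE 0.07, edgeR adjusted p = 0.00987), lost without control replicate 2 or 3 or mutant replicate 2 or 4 (adjusted p from 0.0504 to 0.104). At 3M the value was 0.07 (SE 0.07, edgeR adjusted p = 0.839).

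B2m rose by 0.96 (SE 0.07, edgeR adjusted p = 6.4e-21) in controls and 1.13 (SE 0.07, adjusted p = 4.04e-25) in mutants from P11 to P29. In mutants it rose further by 3M (0.29, SE 0.07, edgeR adjusted p = 0.00246), and controls had -0.07 (SE 0.07, adjusted p = 0.669). The difference between these later changes was 0.35 (SE 0.10) and did not pass (edgeR adjusted p = 0.0718).

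H2-K1, a class I heavy chain, had 23.3, 38.4, 17.02 and 27.5 CPM in P11 controls, 58.7, 58.4, 68.7 and 64.2 at P29, and 40.3, 44.1, 43.0 and 48.3 at 3M. Mutants had 14.2, 15.6, 16.02 and 19.8 CPM, then 43.2, 49.9, 44.7 and 35.1, then 48.7, 49.1, 60.0 and 47.4. P29 mutants lay below all P29 controls, and the genotypes overlapped at P11 and 3M. H2-K1 rose to P29 by 1.24 (SE 0.21, edgeR adjusted p = 1.01e-06) in controls and 1.39 (SE 0.22, adjusted p = 1.89e-07) in mutants. Between genotypes the P11 value was -0.68 (SE 0.23, edgeR adjusted p = 0.0583). The P29 value was -0.53 (SE 0.20, edgeR adjusted p = 0.186).

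H2-D1, the other classical heavy chain here, had 40.6, 35.4, 24.0 and 52.4 CPM in P11 controls, 65.1, 46.0, 51.4 and 45.4 at P29, and 23.5, 36.9, 26.9 and 44.3 at 3M. Mutants had 37.7, 32.2, 31.2 and 29.1 CPM, then 28.5, 62.8, 54.0 and 57.4, then 39.8, 30.8, 37.6 and 53.5. The genotypes overlapped at each age. Its rise passed in mutants (0.65, SE 0.22, edgeR adjusted p = 0.019) and was lost without mutant replicate 4 at P11 or replicate 2 or 4 at P29 (adjusted p from 0.0543 to 0.0917). Its later fall passed in controls (log2 fold change -0.66, SE 0.22, edgeR adjusted p = 0.0355) and was lost without control replicate 1 or 3 at P29 or 1 or 3 at 3M (adjusted p from 0.0615 to 0.174).

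Of the loading genes, Tapbp (tapasin, which bridges empty class I molecules to the peptide transporter) had 109, 91.7, 80.7 and 99.5 CPM in P11 controls and 64.6, 72.1, 78.8 and 55.8 in P11 mutants. These groups did not overlap, and the gap between the closest libraries was small. At P29 it had 132, 139, 131 and 111 CPM in controls and 126, 132, 122 and 120.3 in mutants, and at 3M 106, 83.3, 102 and 85.0 in controls and 105, 111, 128 and 92.7 in mutants. The genotypes overlapped at P29 and 3M. The P11 difference was -0.50 (SE 0.14, edgeR adjusted p = 0.014), and this call was lost without control replicate 1, without mutant replicate 4 and in a fit to the compared libraries alone (adjusted p = 0.0846, 0.0904 and 0.0639). Tapbp rose to P29 by 0.42 (SE 0.13, edgeR adjusted p = 0.00971) in controls and 0.88 (SE 0.14, adjusted p = 7.37e-08) in mutants. It fell by 0.44 (SE 0.13, edgeR adjusted p = 0.0143) in controls after P29, a call lost without control replicate 2 at P29 or 2 or 4 at 3M (adjusted p from 0.0576 to 0.069).

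Tap2, a subunit of the transporter that carries peptides into the endoplasmic reticulum, rose to P29 in mutants (1.69, SE 0.44, edgeR adjusted p = 0.00126). In controls the value was 0.74 (SE 0.40, adjusted p = 0.155). At P11 its mutants, at 4.22 CPM ± 2.5, lay below all controls, at 10.2 ± 3.58 (SD, n = 4), and the difference did not pass (-1.26, SE 0.45, edgeR adjusted p = 0.0769). The immunoproteasome subunit Psmb8 fell by 1.85 (SE 0.65, edgeR adjusted p = 0.0465) in controls after P29, a call lost without control replicate 1, 3 or 4 at either age and without a low-count filter (adjusted p from 0.053 to 0.175). Tap1, Psmb9 and Psmb10 passed in no comparison. At 3M all mutants of Tap1 (4.67 CPM ± 0.846 against 2.47 ± 0.611) and Psmb9 (2.23 ± 1.44 against 0.543 ± 0.427) lay above all controls, near the level of a few counts. Of all genes tested, 5.07% were so separated.

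**Figure D3:**
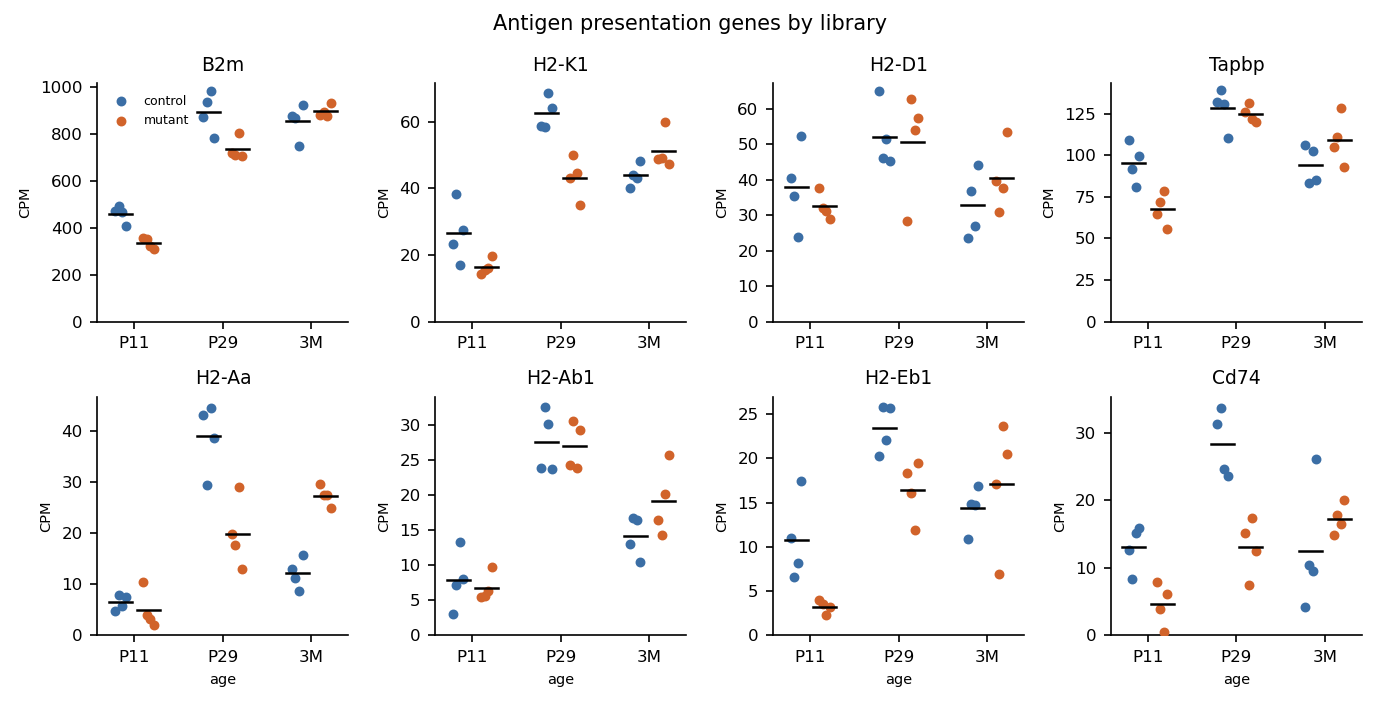
Level in CPM (vertical axis, linear from 0) of 8 antigen presentation genes in each library (points) at 3 ages (horizontal axis), with the mean of each group as a bar. P11 mutants were below all P11 controls for B2m, Tapbp, H2-Eb1 and Cd74, and 3M mutants were above all 3M controls for H2-Aa, at 24.8 to 29.6 CPM against 8.69 to 15.7.

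The class II genes encode the chains that present peptides from engulfed material, and Cd74, the invariant chain, guards their groove. H2-Aa, the alpha chain of I-A, had 4.66, 7.79, 5.67 and 7.41 CPM in P11 controls, 43.0, 29.4, 44.5 and 38.5 at P29, and 12.999, 11.3, 8.69 and 15.7 at 3M. Mutants had 10.3, 3.91, 3.12 and 2.02 CPM, then 19.8, 17.7, 28.9 and 12.9, then 29.6, 27.4, 27.3 and 24.8. P29 mutants lay below all P29 controls, and 3M mutants above all 3M controls. H2-Aa rose to P29 by 2.62 (SE 0.35, edgeR adjusted p = 1.07e-09) in controls and 2.05 (SE 0.37, adjusted p = 2.41e-06) in mutants. It fell by 1.67 (SE 0.32, edgeR adjusted p = 3.98e-05) in controls by 3M, and mutants had 0.46 (SE 0.31, adjusted p = 0.405).

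At P29 the genotype effect on H2-Aa was -0.97 (SE 0.31, edgeR adjusted p = 0.0693). At 3M it was 1.16 (SE 0.33, edgeR adjusted p = 0.0266). The change between these ages was 2.13 (SE 0.45, edgeR adjusted p = 0.00214), and it passed in each alternative analysis run, with 2.00 (adjusted p = 0.01) without control replicate 3 at 3M. The 3M difference alone was lost without any of control replicates 1 to 3 or mutant replicates 1 to 3 (edgeR adjusted p from 0.0579 to 0.127), the highest p being that without control replicate 3 (1.03).

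H2-Eb1 had 11.0, 6.59, 8.19 and 17.5 CPM in P11 controls and 3.92, 3.48, 2.23 and 3.23 in P11 mutants, with no overlap. P29 controls had 20.3, 25.8, 22.05 and 25.7 CPM and P29 mutants 18.4, 16.1, 11.9 and 19.5, again with no overlap. At 3M controls had 10.9, 14.9, 14.8 and 16.9 CPM and mutants 17.1, 6.95, 23.7 and 20.5, and the groups overlapped. Its P11 difference was -1.75 (SE 0.43, edgeR adjusted p = 0.00368), and a fit to the compared libraries alone did not call it (adjusted p = 0.0829). The P29 value was -0.51 (SE 0.35, edgeR adjusted p = 0.666). H2-Eb1 rose to P29 by 1.10 (SE 0.36, edgeR adjusted p = 0.0127) in controls, lost without control replicate 2 at P11 (adjusted p = 0.0519), and by 2.34 (SE 0.41, adjusted p = 1.93e-06) in mutants.

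Cd74 had 12.7, 8.39, 15.1 and 15.9 CPM in P11 controls and 7.83, 3.91, 0.445 and 6.06 in P11 mutants. P29 controls had 31.3, 33.7, 24.6 and 23.7 CPM and P29 mutants 15.2, 7.46, 17.4 and 12.5. At 3M controls had 4.19, 10.4, 9.55 and 26.2 CPM and mutants 14.8, 17.8, 16.6 and 20.02. Mutants lay below all controls at P11 and P29, and at 3M control replicate 4 was above every mutant while the other 3 controls were below. The P11 difference was -1.51 (SE 0.44, edgeR adjusted p = 0.0175), lost without mutant replicate 2 (adjusted p = 0.0567) or 3 (adjusted p = 0.124) and in a fit to the compared libraries alone (adjusted p = 0.111). The P29 value was -1.11 (SE 0.38, edgeR adjusted p = 0.0996).

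With age Cd74 rose to P29 by 1.12 (SE 0.38, edgeR adjusted p = 0.016) in controls, lost without control replicate 2 at P11 (adjusted p = 0.0562), and by 1.52 (SE 0.43, adjusted p = 0.00338) in mutants. Its fall in controls after P29 (log2 fold change -1.17, SE 0.38, edgeR adjusted p = 0.0268) was lost without control replicate 1 or 2 at P29 or 1, 2 or 3 at 3M (adjusted p from 0.0715 to 0.162). H2-Ab1, the beta chain of I-A, averaged 7.84 CPM ± 4.2, 27.6 ± 4.48 and 14.2 ± 2.98 in controls and 6.74 ± 2, 27.02 ± 3.44 and 19.1 ± 4.99 in mutants (SD, n = 4). It rose in both genotypes by 1.87 (SE 0.35) and 1.99 (SE 0.35) and fell by 0.96 (SE 0.32, edgeR adjusted p = 0.0352) in controls. That fall was lost without control replicate 2 or 3 at P29, 1 or 4 at 3M, or the low-count filter (edgeR adjusted p from 0.0658 to 0.13).

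Summed over the 4 class II genes, controls had 29.98 to 48.7 CPM at P11, 112 to 121 at P29 and 41.1 to 69.3 at 3M. Mutants had 12.02 to 27.4, then 71.9 to 82.1, then 66.4 to 91.0 CPM. Mutants were below all controls at P11 and P29, and overlapped them at 3M. Ciita, which switches on this set, had too few counts to test, with 16 of 24 libraries holding any.

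**Figure D4:**
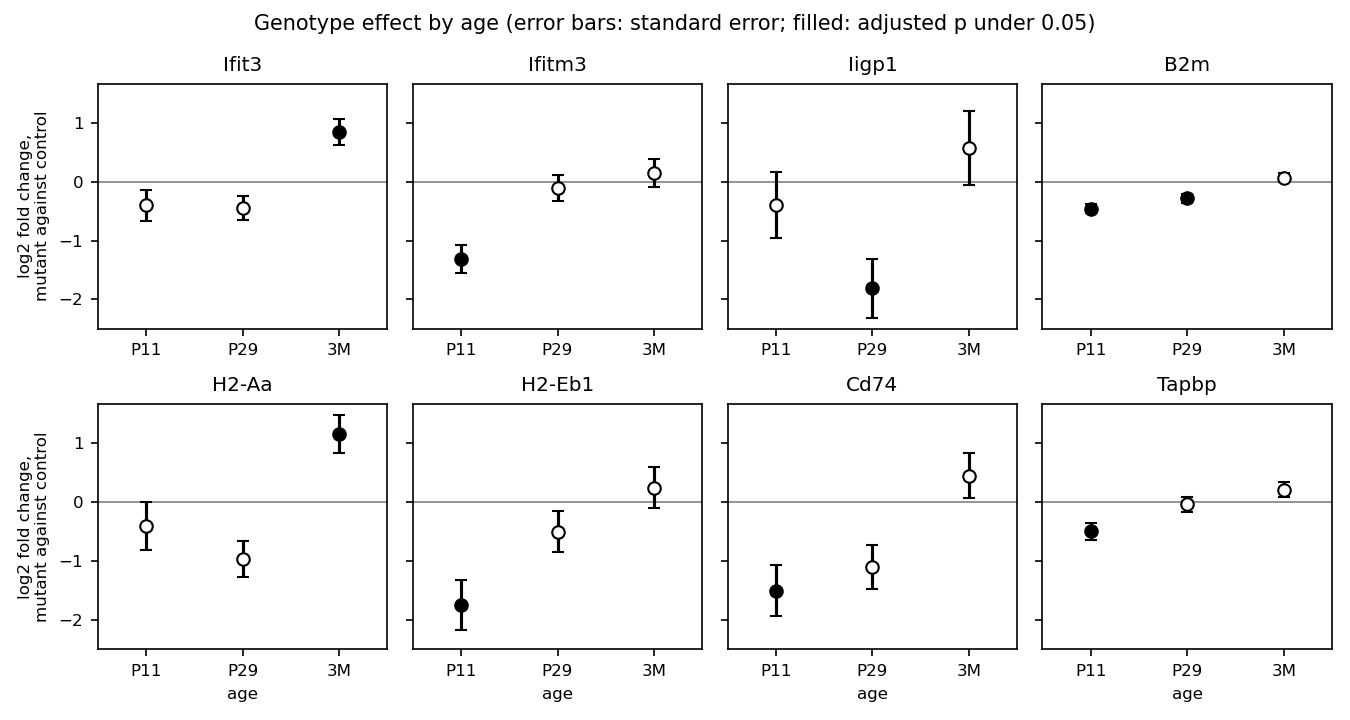
Fitted log2 fold change of mutant against control (vertical axis, points, with standard errors as bars) at 3 ages (horizontal axis) for 8 members called at 1 age or more, filled where the edgeR adjusted p was under 0.05. Gbp2, also called, is left out because no P11 mutant held a count of it. H2-Aa went from -0.97 at P29 to 1.16 at 3M and Ifit3 from -0.45 to 0.84, while Ifitm3, Tapbp, H2-Eb1 and Cd74 were filled at P11 and open later.

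Other genes of these pathways, taken from lists of 62 interferon and 35 antigen presentation genes besides the members, were tested in the same fit. Of the 38 interferon genes tested, 1 was lower in P11 mutants, Socs3, which encodes an inhibitor of cytokine signalling (log2 fold change -1.46, SE 0.22, edgeR adjusted p = 4.49e-07), and 0 passed at P29 or 3M. That is 2.63% lower at P11, beside 3.67% of all genes. At an unadjusted p under 0.05 there were 4 at P11 (10.5%, beside 18.6% of all genes), 9 at P29 (23.7%, beside 11.4%) and 3 at 3M (7.89%, beside 11.3%). DESeq2 called 2 at P11, 2 at P29 and 1 at 3M. With age 11 rose (28.9%, beside 16.5% of all genes) and 1 fell (2.63%, beside 15.6%) in controls to P29, and 8 rose (21.1%, beside 16.5%) and 1 fell (2.63%, beside 15.2%) in mutants. Gbp7, a guanylate-binding GTPase, rose by 1.70 (SE 0.22) in controls and 1.15 (SE 0.22) in mutants. The antiviral gene Rsad2 (viperin) fell, with log2 fold changes of -2.40 (SE 0.35, edgeR adjusted p = 7.63e-09) in controls and -2.37 (SE 0.35, adjusted p = 1.7e-08) in mutants. After P29, 6 fell and 0 rose in controls, among them Socs3 at -1.75 (SE 0.18) and Samhd1, which depletes nucleotides, at -1.15 (SE 0.26), while 2 fell and 1 rose in mutants. The falls made 15.8% of the list in controls, beside 8.5% of all genes, and 5.26% in mutants, beside 7.27%.

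Changes in the genotype effect with age were tested in those lists too. From P11 to P29 the genotype effect moved upward for Socs3 (1.40, SE 0.27, edgeR adjusted p = 0.000267) and downward for Ifit3b, a near copy of Ifit3 (-2.02, SE 0.59, adjusted p = 0.0462). From P29 to 3M it moved upward for Lgals3bp, a secreted glycoprotein induced by interferon (0.68, SE 0.15, edgeR adjusted p = 0.00659). Of the 22 other antigen presentation genes tested, 1 was lower in P11 mutants, the lysosomal protease Ctsl (-0.48, SE 0.11, edgeR adjusted p = 0.00126). At P29 0 passed with edgeR, 0 had an unadjusted p under 0.05 and DESeq2 called 0, and at 3M 1 was lower, the disulfide isomerase Pdia3 of the loading complex (-0.36, SE 0.09, adjusted p = 0.0133). H2-DMb1, which exchanges peptides on class II, rose to P29 by 2.27 (SE 0.44) in controls and 1.22 (SE 0.40) in mutants, in a list with 2 rises in controls (9.09%, beside 16.5% of all genes) and 5 in mutants (22.7%, beside 16.5%). After P29, 2 of these genes rose (9.09%, beside 3.49% of all genes in controls and 5.44% in mutants) and 0 fell in each genotype. The 1 lower at P11 and the 1 at 3M were each 4.55% of the list, beside 3.67% and 0.48% of all genes.

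Markers of other cells moved with some of these results. Beside the P11 falls, 20 microglia and macrophage markers totalled 558 to 636 CPM in controls and 468 to 511 in mutants. Csf1r, a growth factor receptor that took much of this sum, rose in both genotypes over both age intervals, so the sums are also given for the other 19 markers, a choice made after its values were seen. Those 19 totalled 397 to 456 CPM in controls and 304 to 344 in mutants. Among them Tmem119, a microglial membrane protein, was lower in mutants (-1.79, SE 0.46, edgeR adjusted p = 0.00685), the only marker called of 19 tested on the full list. The 13 endothelial markers totalled 639 to 688 CPM in P11 controls and 259 to 355 in P11 mutants, with 7 lower, and 8 fibroblast markers 2963 to 3308 and 2461 to 2681, with 3 lower. The 6 myelin genes totalled 319 to 446 CPM in controls and 24.9 to 47.7 in mutants, with 5 of 5 tested lower, 6 pericyte genes 239 to 290.4 and 111 to 159.5, with 3 lower, and 7 lens genes 81.3 to 120.2 and 36.2 to 45.7, with 3 lower. Rod photoreceptor genes were higher in mutants, at 12756 to 13231 CPM against 10558 to 11673, with 3 of 10 higher. Mitochondrial transcripts took 7.30% to 8.79% of counts in P11 controls and 10.2% to 11.1% in P11 mutants. The part of these markers and of RNA quality in the P11 differences was not tested.

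At P29 the 20 microglia and macrophage markers totalled 645 to 704 CPM in controls and 553 to 572 in mutants, and the 19 without Csf1r 269 to 318 and 228 to 269. Endothelial markers totalled 319 to 359 and 253 to 285, with 1 of 13 higher and 1 lower. The median log2 fold change of the endothelial genes was 0.62, opposite in sign to their sum. At 3M the 20 microglia and macrophage markers totalled 651 to 746 CPM in controls and 749 to 801 in mutants, and the 19 without Csf1r 159 to 203 and 204 to 242. On both sums the mutants were below the controls at P11 and P29 and above them at 3M, without overlap, by a narrow gap at 3M and, for the 19, at P29. With edgeR 0 microglia or macrophage markers passed between genotypes at P29 or 3M, 1 and 5 had an unadjusted p under 0.05, and DESeq2 called 1 and 0. Summed rod photoreceptor genes were higher in mutants, at 14979 to 16159 CPM against 10687 to 11080.0 at P29 and 7039 to 7453 against 3905 to 4277 at 3M, and lens genes at 593 to 689.7 against 32.3 to 47.4 CPM at P29. At 3M the 13 endothelial markers totalled 206 to 264 CPM in controls and 194 to 264 in mutants, with 2 higher (median log2 fold change 0.89). The 8 fibroblast markers totalled 613 to 1200.4 and 845 to 1041, with 2 higher, and 6 pericyte genes 130 to 155 and 153 to 177, with 1 higher. The 5 erythrocyte genes totalled 2072 to 2202 CPM in controls and 2489 to 2655 in mutants at 3M, with 4 higher. The part of these markers in the differences at these ages was not tested.

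Over age these sums were as follows. From P11 to P29 in controls the 20 microglia and macrophage markers went from a mean of 591 to 669 CPM and the 19 without Csf1r from 415 to 295, the endothelial sum from 665 to 341 and 5 erythrocyte genes from 27811 to 2878, beside the 23 members that rose. The sum of 10 RPE genes went from 19562 to 49256 CPM, with 8 of 9 tested higher (median log2 fold change 1.34). In mutants 9 of 9 were higher (median 1.46). From P29 to 3M 8 of 9 RPE genes rose in each genotype (medians 0.43 in controls and 0.56 in mutants). The part of any of these markers in the age changes of the members was not tested. From P29 to 3M in controls the mean of the 20 was 687 CPM and that of the 19 was 185, so that the direction with age depended on Csf1r, with 8 markers of the full list lower and 1, Csf1r, higher, beside the 15 members that fell. Among the falls were C1qa (-1.45, SE 0.30, edgeR adjusted p = 0.000154) and Cx3cr1 (-1.65, SE 0.35, adjusted p = 0.000173), of complement and of chemokine signalling in microglia. In mutants the means of the 20 were 482, 565 and 786 CPM and those of the 19 were 323, 252 and 223. The median log2 fold changes of the tested markers in mutants were -0.40 to P29 and -0.64 from P29 to 3M. To P29 in mutants 2 markers rose, Csf1r and Tmem119 (1.90, SE 0.46, edgeR adjusted p = 0.000517), and 2 fell, Cx3cr1 (-1.30) and Mrc1 (-1.60). From P29 to 3M in mutants 2 rose, Csf1r and Lyz2, a lysozyme of macrophages (0.84, SE 0.21, edgeR adjusted p = 0.00242), and 2 fell, C1qc (-1.21) and Cx3cr1 (-0.99). Fibroblast genes fell in 6 of 8 over that interval in controls and in 4 of 8 in mutants. Lymphocyte markers were near 0: 5 B cell genes totalled at most 9.66 CPM in a library and 8 T and NK cell genes at most 8.59, with Cd3e at 0 in 4 of the 6 groups. The 8 dendritic cell genes totalled 1.98 to 30.6 CPM, with Clec9a at 0 in all 6 groups.

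**Figure D5:**
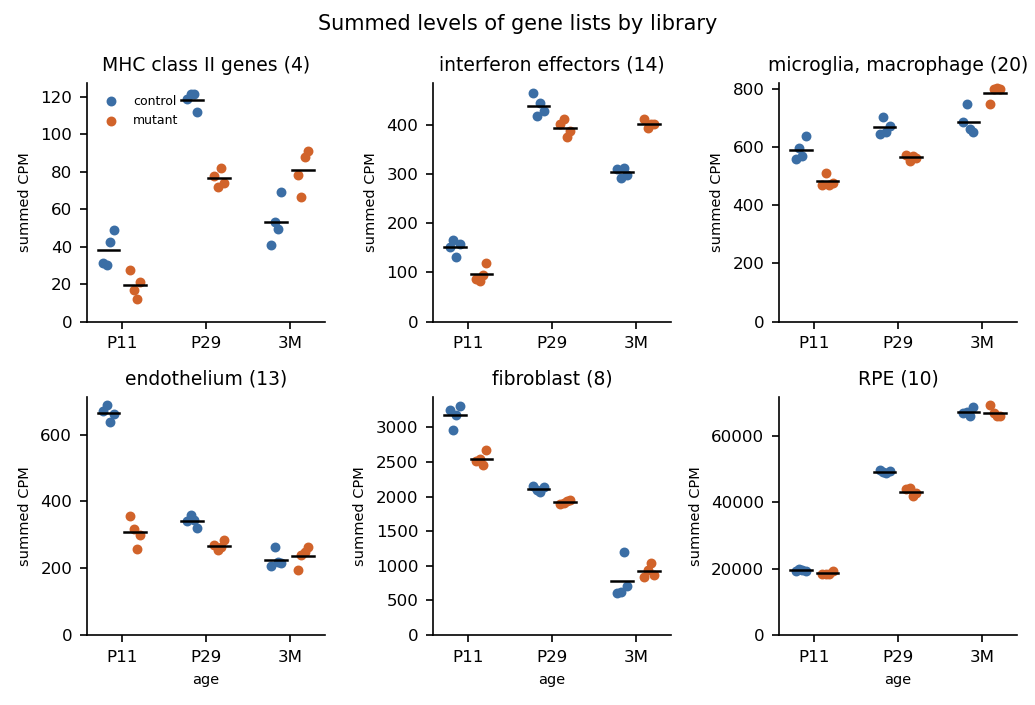
Summed level in CPM (vertical axis, linear from 0) of 4 class II genes, 14 interferon effectors and 4 marker lists of microglia and macrophages, endothelium, fibroblasts and RPE (number of genes in brackets), in each library (points) at 3 ages, with group means as bars. The class II sum of mutants lay below controls at P11 and P29, the endothelial sum was highest in P11 controls at 639 to 688 CPM, and 1 control library at 3M had a high fibroblast sum of 1200.4 CPM.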

How the data were processed

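Poly(A) RNA of isolated mouse RPE was sequenced from its 3′ ends in 24 libraries, 4 for each of 6 groups, per the labels' protocols. The deposited values are raw counts of reads per Ensembl gene; the submitters' processing notes name STAR and mm10. For versions, the counting tool, the annotation, strand and molecular identifiers, nothing is stated in the sources used here. Entries that name no gene (31.0% to 37.2% of all entries for reads aligned to several places, 18.6% to 27.5% for reads in no feature) were left out of library sizes and tests. Symbols and positions came from GENCODE (GRCm38) and promoter sequences from RefSeq (GRCm38.p6).

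Counts were tested with edgeR 4.0.16 (R 4.3.3): filterByExpr, which kept 12303 genes, TMM scaling, robust quasi-likelihood fit of 6 group means over all 24 libraries, and Benjamini-Hochberg adjustment over all genes tested. The standard error is the log2 fold change divided by the square root of F. Alternatives were DESeq2 1.42.0, its size factors, no filter on low counts, at least 5 CPM in 4 libraries, only the libraries compared, a replicate block and leaving out each library. The script was tested on simulated counts. Counting intervals and floors are at 95% and 3 counts and cover counting error only. Bounds from a floor take the counts of the higher group as exact. The members and lists were chosen with earlier results of these data known. Values in every library are given for members with a group mean of at least 5 CPM that were called between genotypes or are class I chains or regulators. Of other pathway genes, at most the 10 called with the smallest p per comparison are named.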

Additional observations from a re-analysis of the deposited data

Results flagged for a closer look

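In the 90 groups of 4 libraries checked over the members given in full, 5 held a library far from the other 3, and chance flags about 1 in 20 groups. Both Ifit3 (40.8 CPM, others 27.8 to 29.4) and Ifitm3 (83.4 CPM, others 29.8 to 37.3) stood high in control replicate 3 at 3M, the library with the high fibroblast sum. Iigp1 was low in control replicate 4 at 3M, at 0.403 CPM against 2.25 to 2.61. B2m was high in mutant replicate 3 at P29, at 805 CPM against 704 to 718, and H2-K1 in mutant replicate 3 at 3M, at 60.0 CPM against 47.4 to 49.1.

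For 3 members the genotype effect itself changed between ages by edgeR's test of the difference. Ifitm3 changed by 1.21 from P11 to P29 (adjusted p = 0.0274). From P29 to 3M, H2-Aa changed by 2.13 (edgeR adjusted p = 0.00214) and Ifit3 by 1.29 (adjusted p = 0.00839).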

How the results depend on the processing

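No member value that passed changed direction under any alternative: of the recomputed calls 1036 kept their side of the threshold and 89 lost it. Called in every alternative that tested them were 3 of 6 members at P11, 0 of 2 at P29, 0 of 2 at 3M, 19 of 23 and 20 of 23 between P11 and P29 in controls and mutants, 9 of 15 and 4 of 5 from P29 to 3M, 0 of 1 and 2 of 2 for the changes in genotype effect. With only the compared libraries fitted, the counts were 2 at P11, 7 at P29 and 3 at 3M, where the calls over all genes were 588, 431 and 389. DESeq2 gave 4 at P29 and 0 for the change in genotype effect from P11 to P29. The causes were not tested.

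Leaving out 1 library gave counts of 5 to 8 at P11, 0 to 2 at P29, 0 to 2 at 3M, 22 to 24 and 21 to 24 for P29 against P11 in controls and mutants, 10 to 13 and 4 to 5 for 3M against P29, and 0 to 1 and 2 to 4 for the changes in genotype effect, the highest being without control replicate 4 at 3M.

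With the replicate block the counts were 6, 2 and 2 between genotypes, 23 and 23 for P29 against P11, 14 and 5 for 3M against P29, and 1 and 2 for the changes in genotype effect, and Oasl2 was the only call lost. Libraries with the same number did not deviate together over all genes (60 pairs, r from -0.0374 to 0.0383). A pairing that leaves little shared deviation would not be seen this way. With libraries of 1513440 to 2889946 counts, genes below 1.04 to 1.98 CPM lay under 3 counts, which limits Irf7, Gbp2, Usp18, Ciita and other low members.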
